A study of Mus musculus with 8 samples.

Results

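Mouse chromosome 16 carries 47 genes examined here as the orthologs of human chromosome 21 genes, the chromosome present in an extra copy in Down syndrome. They lie between Hspa13 and Bace2 (chromosome 16, 75745431 to 97442936 in GRCm38). All 47 were found by symbol among the 24542 genes of each table, 45 had at least 10 reads in at least 2 samples, and 42 had at least 10 allele-assigned reads in each of the 8 samples. The set was selected on the measured allelic ratio of chromosome 16, whose reads were skewed towards the Cast allele in 6 samples and not in the remaining 2, those of Hdac3KO Rep2. Every difference between these sets of samples, in ratio or level, is therefore a description below and carries no test.

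RNA-seq was made from TX1072 mouse embryonic stem cells, a female hybrid line with a C57BL/6 (B6) and a CAST/EiJ (Cast) chromosome set, so that reads over sequence differences can be assigned to an allele. In this line doxycycline (DOX) turns on the cells' own Xist gene, through an inducible promoter placed on the B6 X chromosome. The samples were unedited cells (Hdac3+/+, labelled WT) at 0 and 24 hr of DOX, and Hdac3-/- cells (labelled Hdac3KO) at the same times, with 2 replicates in each of the 4 groups. The Hdac3KO cells were independent CRISPR/Cas9 deletion clones, and Rep1 and Rep2 are read here as 1 clone each, sampled at both times, although the labels give only replicate numbers. All cells were grown on gelatine in serum with LIF and 2i, and all carried the inducible promoter. The paper describes its RNA-seq replicates as biological duplicates, but the labels do not say that the WT replicates were separate cultures. The p-values measure the spread between these samples, part of which may be technical.

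Total reads per sample were 6940375 to 17125156, of which 30.1 to 31.6% were assigned to an allele. Hdac3, the targeted gene, had 37.7 to 42.7 CPM (reads per gene scaled to the library size) in WT and 5.55 to 7.48 in Hdac3KO. Summed over 7 markers, embryonic stem cell genes had 4189 to 5115 CPM in all samples, and none of these markers was under 1 CPM in any line. The 6 primitive endoderm markers summed to 13.2 to 15.4 CPM in WT, 16.02 to 17.2 in Hdac3KO Rep1 and 26.0 to 28.6 in Hdac3KO Rep2. Most of the higher sum in Hdac3KO Rep2 was Dab2, with 18.9 and 21.3 CPM there against 6.99 to 9.04 in WT. Gata6 (1.03 and 1.61 against 0.446 to 0.603) and Pdgfra (3.1 and 2.51 against 0.904 to 1.42) were also higher. Gata4 was at 1.72 and 1.41 against 0.904 to 1.71. Sox17 was at 0.086 and 0.100 CPM and Sox7 at 1.12 and 1.71, against 0.803 to 1.04 and 1.42 to 3.11 in WT. Hdac3KO Rep1 also had Dab2 (11.9 and 10.7), Gata6 (0.898 and 0.792) and Pdgfra (2.575 and 2.64) above WT. Its Sox17 (0.180 and 0.264) was below WT. Markers of primitive streak (3 genes, 37.1 to 81.1 CPM), trophoblast (3 genes, 11.6 to 33.9) and fibroblasts (4 genes, 28.9 to 60.0, Col3a1 at 0 in WT) summed to less than the embryonic stem cell markers. The WT replicates differed in T, with 27.35 and 23.5 CPM in replicate 1 and 66.9 and 49.0 in replicate 2, at 0 and 24 hr. They also differed in Cdx2, with 7.06 and 6.125 CPM against 25.5 and 22.3. Whether the endoderm markers have a part in any difference of Hdac3KO Rep2 was not tested.

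Human chromosome 21 genes are studied for dosage: an additional copy of a gene can raise its RNA, but feedback and buffering can change how far it does. App encodes the precursor of amyloid-β, Dyrk1a a dosage-sensitive kinase, and Rcan1 an inhibitor of calcineurin; all have been studied in relation to Down syndrome. Several mouse models of the syndrome carry additional copies of this chromosome 16 segment. In hybrid cells, the share of reads from each allele gives the balance of RNA between the alleles, which is not by itself a measure of gene copies.

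That share is the d-score, the reads assigned to B6 divided by those assigned to B6 or Cast, so that 0.5 is balanced expression and 0.333 is the value when Cast gives 2 reads for each B6 read. Over the 42 genes the median d-score was 0.358, 0.347, 0.336 and 0.333 in WT (here and below in the order 0 hr replicate 1, 24 hr replicate 1, 0 hr replicate 2, 24 hr replicate 2). It was 0.344 and 0.343 in Hdac3KO Rep1 and 0.512 and 0.5003 in Hdac3KO Rep2, at 0 and 24 hr. Pooling the allelic reads of all 42 genes, B6 reads made up 32.8 to 34.1% in WT, 33.8 and 34.2% in Hdac3KO Rep1, and 50.4% (exact 95% interval 49.6 to 51.1) and 50.2% (49.4 to 50.9) in Hdac3KO Rep2. These intervals cover counting error only. In 37 of the 42 genes both d-scores of Hdac3KO Rep2 lay above all other samples, which over all genes was so for 7.14%. The exceptions were Usp25, Rwdd2b, Setd4, Hlcs and Pigp, each with fewer than 30 allelic reads in its shallowest sample. Neither the number of chromosome copies nor genomic DNA was analysed here.

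**Figure D1:**
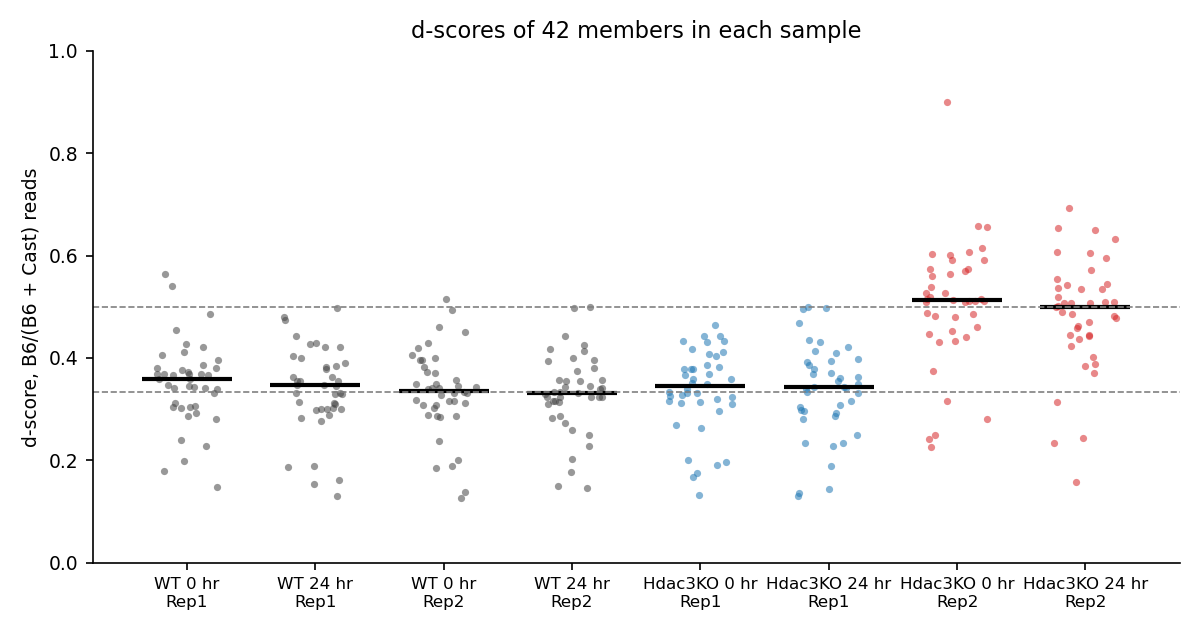
d-scores of the 42 genes with at least 10 allelic reads in every sample; each point is a gene, the bar is the median, and dashed lines mark 0.5 and 0.333. The medians of the 6 samples of WT and Hdac3KO Rep1 lie between 0.333 and 0.358, and those of Hdac3KO Rep2 at 0.512 and 0.5003.

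Which allele differed was read from B6 and Cast CPM separately, both scaled by the total reads of the sample, as log2(CPM + 0.5) of Hdac3KO Rep2 minus Hdac3KO Rep1 at the same time and averaged over 0 and 24 hr. The median of this difference was −0.82 for Cast reads, a fold of 0.566, and 0.11 for B6 reads, a fold of 1.08. Cast reads were lower in Hdac3KO Rep2 for all 42 genes, from −1.99 for App to −0.21 for Jam2, and B6 reads were lower for 15 and higher for 27. The B6 median between the clones was 0.174 at 0 hr and 0.003 at 24 hr, so leaving out either clone's 0 hr sample brought it to 0.003. Against WT the medians were −0.77 for Cast and 0.063 for B6. Without the 24 hr sample of WT replicate 2 the latter was 0.112. In 39 of the 42 genes both Cast values of Hdac3KO Rep2 lay below the other 6 samples (12.1% over all genes). For B6 the count was 3 of 42 below (9.17% over all genes), namely Usp25, Cxadr and Hlcs. Of these, Usp25 and Hlcs had few allelic reads, as given above. Another 11 of 42 lay above (9.27% over all genes), namely Jam2, Usp16, Cct8, Sod1, Urb1, Ifnar1, Gart, Son, Ttc3, Dyrk1a and Hmgn1. A typical gene's difference varied between the 2 times by an SD of 0.14 for Cast and 0.16 for B6.

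**Figure D2:**
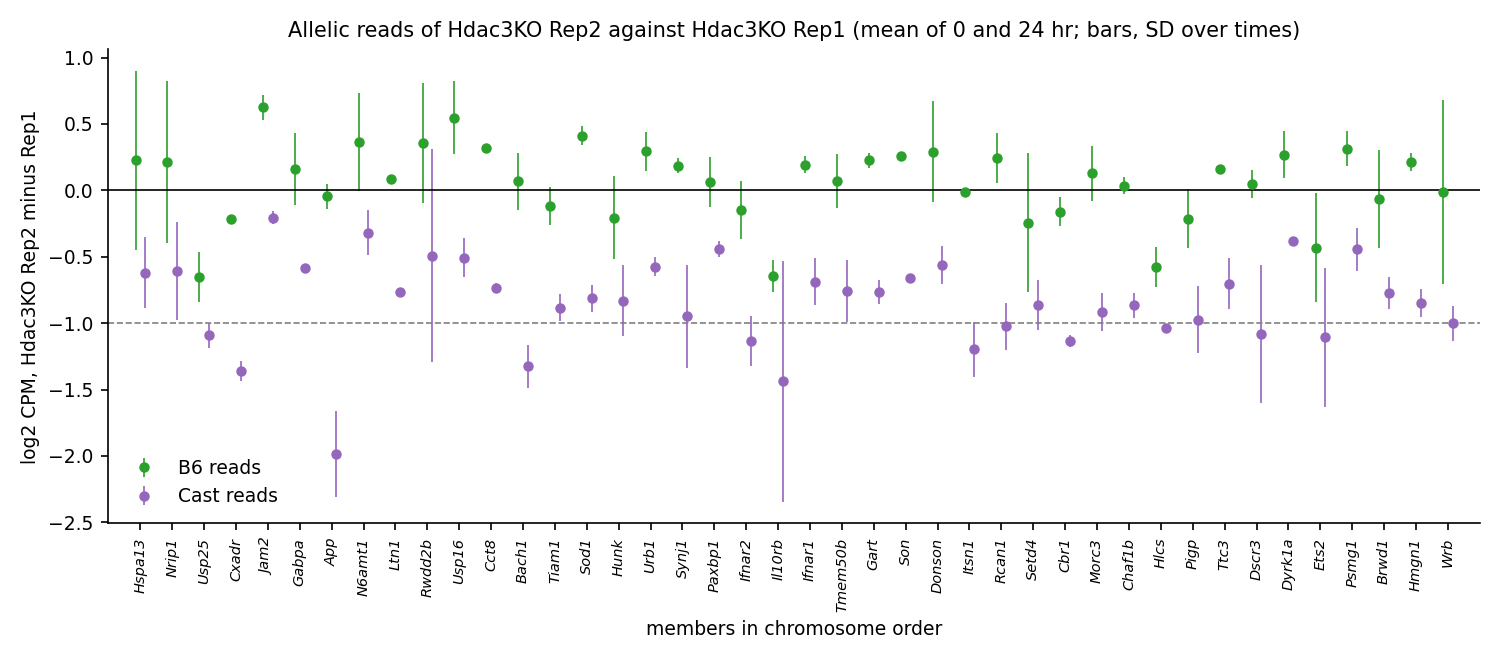
B6 and Cast reads of each gene in Hdac3KO Rep2 minus Hdac3KO Rep1, as log2 CPM, in chromosome order; points are means of 0 and 24 hr, bars the SD over the 2 times, and the dashed line marks −1. Cast points lie below 0 for all 42 genes, with App lowest, and B6 points lie on either side of 0.

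Total expression followed at a smaller size. The median log2 difference in total CPM over the 45 genes was −0.50 against Hdac3KO Rep1 (fold 0.709) and −0.40 against WT (fold 0.756), beside a typical SD over the 4 WT samples of 0.11. As an arithmetic reference, going from 3 to 2 equal copies would give −0.585. Both Hdac3KO Rep2 samples lay below the other 6 in 34 of the 45 genes (14.4% over all genes) and above them in 0. Of the reads of a library, 0.507 to 0.541% fell on the 47 genes in WT and Hdac3KO Rep1, and 0.397 and 0.401% in Hdac3KO Rep2. In bulk RNA, a lower level in each cell and fewer expressing cells cannot be told apart.

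The size varied from gene to gene. Against Hdac3KO Rep1, 3 genes were at −1 or below (App, Runx1 and Usp25), 18 between −1 and −0.5, 15 between −0.5 and −0.25, 8 between −0.25 and 0, and Jam2 alone was above 0. Among the 35 genes with at least 50 allelic reads in every sample, the lowest were App (−1.66), Cbr1 (−0.97) and Tiam1 (−0.85), and the highest Jam2 (0.17), N6amt1 (−0.017) and Usp16 (−0.058). Each of these genes also passed the test of Hdac3KO Rep1 against WT below. App, Cbr1 and Tiam1 were higher in Hdac3KO Rep1, and Jam2, N6amt1 and Usp16 lower. In the same order, Hdac3KO Rep2 against WT was at −0.75, −0.64, −0.54, −0.55, −0.625 and −0.32. Over the 45 genes, the lowest against WT were Cxadr (−2.23), Usp25 (−2.13), Hlcs (−1.415) and Bach1 (−1.36). Only Gart (0.17) and Sod1 (0.046) were above 0. For the log2 B6:Cast ratio of Hdac3KO Rep2 minus Hdac3KO Rep1 in those 35 genes, the extremes were Paxbp1 (0.52), Hunk (0.63) and Dyrk1a (0.68) at the lower end. At the upper end were Rcan1 (1.33), Bach1 (1.45) and App (2.06). Against WT those of Paxbp1, Hunk and Dyrk1a were 0.54, 0.91 and 1.13, and those of Rcan1, Bach1 and App 1.00, 1.25 and 0.40. The ratio of App in Hdac3KO Rep1 was itself −1.66 from WT. The reference for the B6:Cast ratio of Hdac3KO Rep2, from 1 to 2 against 1 to 1, is 1 on the log2 scale. The median over the 42 genes was 0.92 against Hdac3KO Rep1 and 1.00 against WT.

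**Figure D3:**
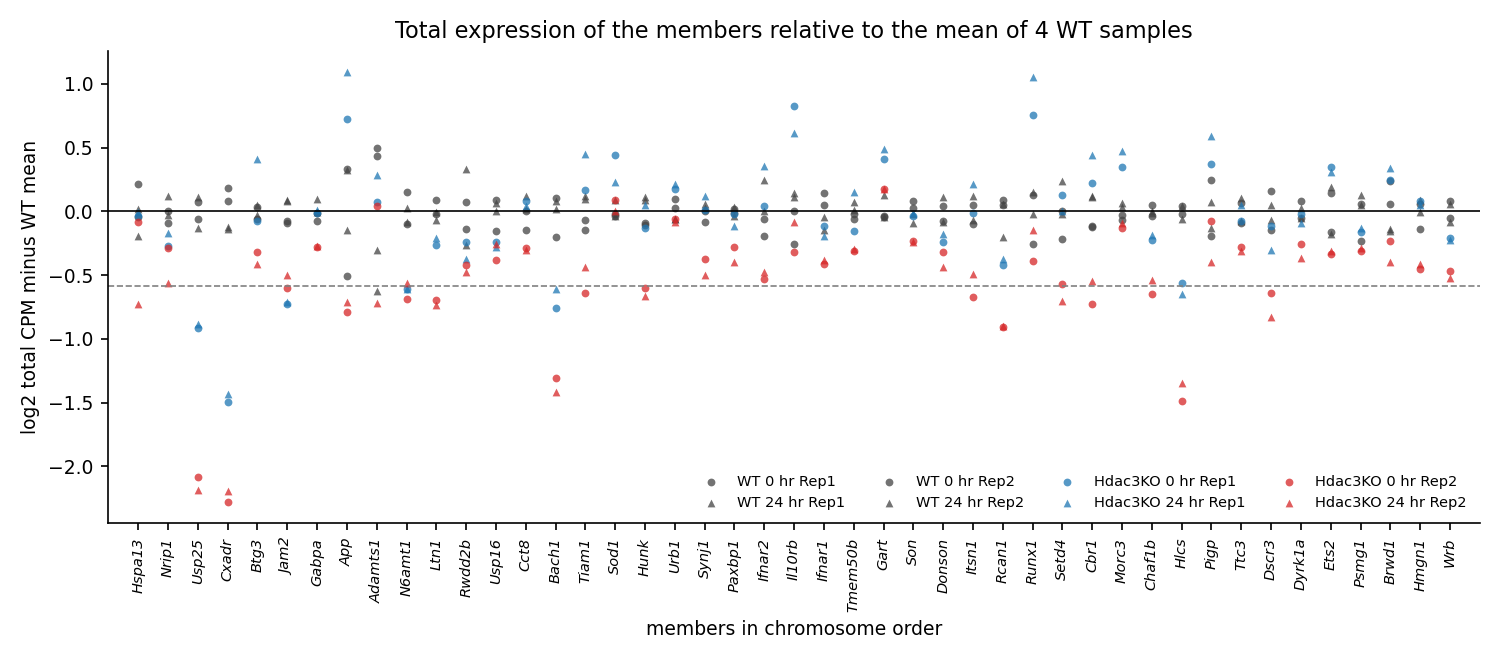
Total expression of the 45 genes as log2(CPM + 0.5) minus the WT mean in each of the 8 samples, in chromosome order; the dashed line marks −0.585. Red points (Hdac3KO Rep2) lie below those of the other 6 samples in 34 genes, while blue points (Hdac3KO Rep1) lie on both sides of 0.

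The same values were not confined to these genes. Over 397 other chromosome 16 genes the median total difference of Hdac3KO Rep2 from Hdac3KO Rep1 was −0.45, and over 272 with allelic reads those of Cast and B6 were −0.78 and 0.12. The 25 other genes between Hspa13 and Bace2 had a total median of −0.49, and the 363 nearer the centromere −0.44. Against WT the medians were −0.26 and −0.47, and both Hdac3KO Rep2 samples lay below the other 6 in 12 of the 25 and 240 of the 363. By contrast, 41 orthologs of human chromosome 21 on chromosomes 10 and 17 had a median of −0.011 and other autosomal genes 0. Since the whole chromosome was used in choosing the set, these medians are descriptions.

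Promoter windows around the transcription start, from RefSeq (GRCm38.p6), were matched for 40 of the 47 genes. Shown are those of App, whose clones differed most, of Sod1 and Gart, whose mean totals in Hdac3KO Rep2 were not below WT, and of Hmgn1, whose total was. Each is read 5′ to 3′ along the strand of its gene, with matches to the GC box GGGCGG and the ETS core CCGGAAG, on either strand, in capitals.
App, chr16:85173658-85173957, minus strand: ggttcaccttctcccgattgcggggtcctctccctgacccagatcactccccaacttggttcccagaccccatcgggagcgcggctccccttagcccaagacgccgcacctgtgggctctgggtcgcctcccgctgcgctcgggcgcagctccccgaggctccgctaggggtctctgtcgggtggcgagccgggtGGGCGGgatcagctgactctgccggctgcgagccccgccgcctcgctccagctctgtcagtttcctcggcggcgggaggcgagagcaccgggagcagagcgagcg
Sod1, chr16:90220512-90220811, plus strand: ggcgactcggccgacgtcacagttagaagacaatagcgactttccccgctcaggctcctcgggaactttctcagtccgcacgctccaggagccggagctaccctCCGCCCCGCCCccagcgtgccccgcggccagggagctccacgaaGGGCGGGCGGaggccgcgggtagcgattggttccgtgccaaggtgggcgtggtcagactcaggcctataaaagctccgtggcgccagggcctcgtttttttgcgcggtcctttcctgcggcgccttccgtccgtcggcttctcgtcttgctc
Gart, chr16:91646923-91647222, minus strand: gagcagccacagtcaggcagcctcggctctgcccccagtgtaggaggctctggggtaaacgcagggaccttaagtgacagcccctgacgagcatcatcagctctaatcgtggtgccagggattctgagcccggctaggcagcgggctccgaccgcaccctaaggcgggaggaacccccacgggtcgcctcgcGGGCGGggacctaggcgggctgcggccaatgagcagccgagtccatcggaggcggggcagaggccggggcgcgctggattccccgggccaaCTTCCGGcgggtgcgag
Hmgn1, chr16:96127676-96127975, minus strand: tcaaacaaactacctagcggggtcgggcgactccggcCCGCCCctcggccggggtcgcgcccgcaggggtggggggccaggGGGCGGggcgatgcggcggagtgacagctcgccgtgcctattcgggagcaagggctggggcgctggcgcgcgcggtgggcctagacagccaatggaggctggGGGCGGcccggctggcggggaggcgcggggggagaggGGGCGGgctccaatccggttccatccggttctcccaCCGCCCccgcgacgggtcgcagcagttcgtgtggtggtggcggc
The GC box occurred 1 time in App, 4 in Sod1, 1 in Gart and 5 in Hmgn1, counting overlapping matches, and the ETS core only in Gart among these promoters. With the first listed promoter of each gene, 65.0% of the 40 genes held a GC box and 27.5% an ETS core, against 35.9% and 9.12% of all 27025 genes in the table. The letters TATAAA were in 5.0% against 14.2%, Sod1 among them. Median GC content was 67.7% against 52.7%; the table includes genes silent in these cells and noncoding genes, and a match is a description, not a bound site.

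Genes are described below by role, with total CPM in the sample order given above. Levels are compared between genes only as TPM, which divides by exon length. In WT, Cct8 had the highest TPM of the set (674 ± 29.2, SD, n = 4), followed by Hmgn1 (399.6 ± 14.2), Jam2 (284 ± 14.8) and Sod1 (229 ± 9.40). Sh3bgr, Adamts1, Runx1 and Bace2 were at or near the limit of detection, with mean TPM of 1.03, 0.376, 0.218 and 0.0385. Hmgn1 has many processed pseudogenes, so its counts may be shared with near copies.

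Of the genes of amyloid processing, oxidation and protein quality, 8 of 9 could be measured. The median total difference of Hdac3KO Rep2 from Hdac3KO Rep1 was −0.37, from −1.66 to −0.16. Both Hdac3KO Rep2 samples lay below all others in 6 of 8 genes (14.4% over all genes). App (chromosome 16, 84949685 to 85173766) had 24.1, 24.0, 13.3 and 17.2 CPM in WT, 31.8 and 41.2 in Hdac3KO Rep1 and 10.8 and 11.4 in Hdac3KO Rep2. The lines did not overlap, although the WT replicates themselves differed. Its d-scores, on 66 to 286 allelic reads, were 0.356 to 0.366 in WT, 0.168 and 0.136 in Hdac3KO Rep1 and 0.430 and 0.424 in Hdac3KO Rep2, so both clones stood apart from WT, in opposite directions.

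Sod1 (chromosome 16, 90220754 to 90226329), the copper-zinc superoxide dismutase, gave 247, 244, 245 and 267 CPM in WT, 339.5 and 294 in Hdac3KO Rep1 and 267 and 251 in Hdac3KO Rep2. Here total expression of Hdac3KO Rep2 overlapped with WT, and its log2 difference from WT was 0.046. Underneath it the alleles differed: Cast reads were 51.6 and 50.8 CPM against 65.5 to 95.7 in the other 6 samples, and B6 reads 60.0 and 60.8 against 35.1 to 46.7. Ttc3 (chromosome 16, 94370618 to 94469343), a ubiquitin ligase, had 141, 143, 157 and 162 CPM in WT, 143 and 156 in Hdac3KO Rep1 and 124 and 121 in Hdac3KO Rep2. Both Hdac3KO Rep2 samples were the lowest. Usp25, a deubiquitinase, lay furthest below WT in this group, with 29.7, 30.6, 27.1 and 25.7 CPM in WT, 14.7 and 15.1 in Hdac3KO Rep1 and 6.28 and 5.82 in Hdac3KO Rep2. Its lines did not overlap, and both alleles were lowest in Hdac3KO Rep2. The allelic values there rest on 24 and 19 reads, with B6 at only 0.516 and 0.301 CPM. Ltn1, a ubiquitin ligase of ribosome quality control, had 133, 135, 144 and 129 CPM in WT, 112 and 117 in Hdac3KO Rep1 and 83.4 and 81.0 in Hdac3KO Rep2. Bace2 (chromosome 16, 97356742 to 97442936), a protease of the β-secretase family, had 0 to 4 reads per sample, too few for a comparison.

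All 7 genes of kinases, signalling and vesicle traffic had both Hdac3KO Rep2 samples below the rest in total (14.4% over all genes). The same held in Cast reads (12.1% over all genes). Their median total difference from Hdac3KO Rep1 was −0.53. Dyrk1a (chromosome 16, 94570010 to 94695517) had 167, 168, 184 and 177 CPM in WT, 171 and 163 in Hdac3KO Rep1 and 145 and 135 in Hdac3KO Rep2, a difference of −0.25 ± 0.027 (SD over 2 times). Rcan1 (chromosome 16, 92391953 to 92470867) had 38.4, 38.6, 39.3 and 32.1 CPM in WT, 27.5 and 28.4 in Hdac3KO Rep1 and 19.5 and 19.6 in Hdac3KO Rep2. For Rcan1 the lines stood in order, WT highest and Hdac3KO Rep2 lowest, without overlap. Tiam1, a Rac exchange factor, had 91.6, 102, 86.7 and 104 CPM in WT, 108 and 131 in Hdac3KO Rep1 and 61.4 and 70.7 in Hdac3KO Rep2. Hunk, a protein kinase, had 71.1, 81.6, 72.1 and 83.0 CPM in WT, 70.0 and 79.7 in Hdac3KO Rep1 and 50.6 and 48.3 in Hdac3KO Rep2. Tiam1 and Hunk had a Cast excess in Hdac3KO Rep2 as well, with d-scores of 0.242 and 0.244 and of 0.280 and 0.314, against 0.143 to 0.228 and 0.162 to 0.233 in the other 6 samples. Cbr1, a carbonyl reductase of the metabolic group, did likewise, at 0.226 and 0.234 against 0.126 to 0.153.

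Among 13 genes of transcription and chromatin, 10 had both Hdac3KO Rep2 samples lowest in total (14.4% over all genes). The median difference from Hdac3KO Rep1 was −0.53. Hmgn1 (chromosome 16, 96120618 to 96127729), a nucleosome-binding protein, had 322, 353, 368 and 378 CPM in WT, 375 and 366 in Hdac3KO Rep1 and 259 and 265 in Hdac3KO Rep2. Ets2 (chromosome 16, 95702075 to 95721051), an ETS-family transcription factor, had 97.6, 101, 79.2 and 78.4 CPM in WT, 112 and 109.5 in Hdac3KO Rep1 and 70.2 and 71.4 in Hdac3KO Rep2. In both, Hdac3KO Rep2 lay below every other sample. Brwd1 (chromosome 16, 95992092 to 96082526), a bromodomain protein, had 306, 234, 271 and 236 CPM in WT, 308 and 329 in Hdac3KO Rep1 and 222 and 198 in Hdac3KO Rep2.

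Usp16 (chromosome 16, 87454703 to 87483517), a deubiquitinase of histone H2A, gave 43.9, 48.9, 51.9 and 51.0 CPM in WT, 41.2 and 40.1 in Hdac3KO Rep1 and 37.3 and 40.9 in Hdac3KO Rep2, and the clones overlapped. Its alleles did not: B6 reads of Hdac3KO Rep2 were 11.5 and 13.2 CPM against 7.66 to 9.65 elsewhere, and Cast reads 10.3 and 11.4 against 15.1 to 23.7. Bach1, a heme-responsive repressor, had 92.3, 90.9, 74.8 and 86.9 CPM in WT, 50.6 and 56.2 in Hdac3KO Rep1 and 34.5 and 31.9 in Hdac3KO Rep2. It was the transcription gene furthest below WT, at −1.36 on the log2 scale. Runx1 (chromosome 16, 92601466 to 92826149), a regulator of blood formation, was barely expressed, with 0.520, 0.703, 0.832 and 0.852 CPM in WT, 1.56 and 2.02 in Hdac3KO Rep1 and 0.430 and 0.603 in Hdac3KO Rep2, on 5 to 26 reads.

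Morc3, a chromatin ATPase of nuclear bodies, had 182, 195, 178 and 191 CPM in WT, 238 and 259.7 in Hdac3KO Rep1 and 170.2 and 175 in Hdac3KO Rep2. Chaf1b, a subunit of a histone chaperone, had 119, 114, 112 and 115 CPM in WT, 98.2 and 101 in Hdac3KO Rep1 and 73.3 and 79.0 in Hdac3KO Rep2. In both genes Hdac3KO Rep2 was lowest. The methyltransferase N6amt1 had 16.1, 17.7, 19.3 and 16.3 CPM in WT, 11.2 and 11.2 in Hdac3KO Rep1 and 10.6 and 11.6 in Hdac3KO Rep2, and here the clones overlapped.

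In the group of RNA, replication and metabolism, 6 of 9 genes had Hdac3KO Rep2 lowest in total (14.4% over all genes). The median difference from Hdac3KO Rep1 was −0.27. Son (chromosome 16, 91647506 to 91679221), a splicing cofactor with 1266 to 3112 allelic reads per sample, had 617, 568, 641 and 598 CPM in WT, 589 and 599 in Hdac3KO Rep1 and 515 and 511 in Hdac3KO Rep2. Its d-scores were 0.339 to 0.351 in the first 6 samples and 0.510 and 0.501 in Hdac3KO Rep2. Gart (chromosome 16, 91621186 to 91646952), an enzyme of purine synthesis that is transcribed away from Son, had 232, 260.1, 231 and 232 CPM in WT, 317 and 335 in Hdac3KO Rep1 and 269 and 269 in Hdac3KO Rep2. All 4 Hdac3KO values of Gart lay above WT, while its d-score in Hdac3KO Rep2, 0.574 and 0.573, was above the 0.383 to 0.417 of the others. Hlcs, the biotin ligase, had 12.3, 11.4, 11.8 and 12.3 CPM in WT, 7.96 and 7.48 in Hdac3KO Rep1 and 3.96 and 4.42 in Hdac3KO Rep2. Its lines were in that order, without overlap.

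Cbr1 had 54.2, 64.2, 54.2 and 63.9 CPM in WT, 68.8 and 80.1 in Hdac3KO Rep1 and 35.3 and 40.3 in Hdac3KO Rep2. Paxbp1, a partner of PAX proteins, had 104, 100.3, 102 and 105 CPM in WT, 101 and 94.7 in Hdac3KO Rep1 and 84.5 and 77.8 in Hdac3KO Rep2. Hdac3KO Rep2 was lowest in both. Urb1, a ribosome biogenesis factor, had 143, 135, 151 and 135 CPM in WT, 159 and 164 in Hdac3KO Rep1 and 135 and 133 in Hdac3KO Rep2. Pigp, an enzyme of GPI anchor synthesis, had 5.28, 6.43, 7.32 and 5.54 CPM in WT, 8.02 and 9.42 in Hdac3KO Rep1 and 5.76 and 4.52 in Hdac3KO Rep2. In Urb1 and Pigp, Hdac3KO Rep2 overlapped with the other samples.

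Of the receptors, adhesion and membrane genes, 8 of 9 passed the minimum of total reads. Of these, 5 had Hdac3KO Rep2 lowest (14.4% over all genes). The interferon receptor chain Ifnar1 (chromosome 16, 91485238 to 91507441) had 75.6, 65.8, 80.8 and 70.8 CPM in WT, 67.4 and 63.7 in Hdac3KO Rep1 and 54.9 and 55.8 in Hdac3KO Rep2. Its partner Ifnar2 (chromosome 16, 91372783 to 91405589) had 11.7, 14.6, 10.6 and 12.2 CPM in WT, 12.6 and 15.7 in Hdac3KO Rep1 and 8.25 and 8.64 in Hdac3KO Rep2. Both chains were lowest in Hdac3KO Rep2, but Ifnar2 started from a different allelic balance, with WT d-scores of 0.480 to 0.541 against 0.249 to 0.304 for Ifnar1. Il10rb (chromosome 16, 91406164 to 91425834), a shared chain of the interleukin-10 receptor family, had 2.60, 2.91, 2.08 and 2.84 CPM in WT, 4.97 and 4.22 in Hdac3KO Rep1 and 1.98 and 2.41 in Hdac3KO Rep2, on 20 to 83 reads.

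Cxadr, the coxsackievirus and adenovirus receptor of cell junctions, had 61.1, 52.5, 65.5 and 53.0 CPM in WT, 20.2 and 21.1 in Hdac3KO Rep1 and 11.5 and 12.2 in Hdac3KO Rep2, so that both clones lay below WT. Jam2 (chromosome 16, 84774123 to 84825928), a junctional adhesion molecule, had 442, 501, 448 and 503 CPM in WT, 286 and 288 in Hdac3KO Rep1 and 311 and 335 in Hdac3KO Rep2. Its d-scores, on 1596 to 2916 allelic reads, were 0.288 to 0.312 in WT, 0.368 and 0.393 in Hdac3KO Rep1 and 0.527 and 0.519 in Hdac3KO Rep2. Jam2 was thus below WT in both clones, with 3 separate ranges of allelic balance.

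The choice of genes placed Hdac3KO Rep1 and WT on the same, Cast-skewed side. Their difference in total counts did not choose the genes and was tested with edgeR's quasi-likelihood test over all genes, with line and time as terms. Their allelic ratios did enter the choice, so the allelic test further below does not show that the lines are alike. In total counts, 22 of 45 genes passed an adjusted p of 0.05 (41.3% of all 13771 genes tested). Of these, 12 rose in Hdac3KO Rep1 (21% of all genes) and 10 fell (20.3%). The median log2 fold change of the 45 genes was −0.013, and that of all genes 0.007. For the orthologs on chromosomes 10 and 17, 8 of 41 rose and 6 fell. With 1 clone, clone and genotype cannot be told apart.

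For each call the log2 estimate ± SE and the adjusted p of edgeR follow in parentheses. The genes that rose were App (0.87 ± 0.16, 0.000467), Gart (0.45 ± 0.060, 1.70e-05), Morc3 (0.41 ± 0.056, 1.91e-05), Sod1 (0.34 ± 0.066, 0.000637), Cbr1 (0.33 ± 0.068, 0.000917), Tiam1 (0.31 ± 0.062, 0.000784), and by less or with a larger error Brwd1 (0.29 ± 0.077, 0.00653), Ets2 (0.31 ± 0.092, 0.0115), Urb1 (0.19 ± 0.062, 0.0185) and Pigp (0.49 ± 0.18, 0.0399). The remaining rises, of Runx1 (1.29 ± 0.37, 0.00965) and Il10rb (0.84 ± 0.23, 0.00755), rest on few reads. The genes that fell were led by Cxadr (−1.50 ± 0.10, 6.55e-09), Usp25 (−0.93 ± 0.11, 6.24e-06), Jam2 (−0.72 ± 0.060, 8.43e-08), Bach1 (−0.69 ± 0.089, 9.67e-06), N6amt1 (−0.64 ± 0.13, 0.000812) and Hlcs (−0.63 ± 0.14, 0.00223). Smaller falls were those of Rcan1 (−0.41 ± 0.098, 0.00267), Usp16 (−0.26 ± 0.087, 0.024), Ltn1 (−0.24 ± 0.064, 0.00647) and Chaf1b (−0.21 ± 0.064, 0.0157).

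By role, 2 genes rose and 2 fell among amyloid and protein quality, 1 and 1 among kinases and traffic, 4 and 4 in transcription and chromatin, 4 and 1 in RNA, replication and metabolism, and 1 and 2 among receptors and membrane genes. In all, 11 of the 22 calls held in every alternative fit, among them App, Cxadr, Usp25, Jam2, Bach1, Gart and Morc3. Without the 0 hr sample of Hdac3KO Rep1, 13 genes passed, and the calls of Sod1, Rcan1, Ets2, Ltn1, Usp16, Chaf1b, Il10rb, Runx1 and Pigp were lost. Without its 24 hr sample, those of Urb1 and Brwd1 were lost, besides Usp16, Runx1, Chaf1b, Pigp and Ets2. The call of Pigp was also lost without any of 3 WT samples, and that of Usp16 without the 0 hr sample of WT replicate 2. With DESeq2 on all samples, Usp16, Il10rb, Runx1 and Pigp were not called. The log2 estimate of Brwd1 was 0.46 without the 0 hr and 0.10 without the 24 hr sample of Hdac3KO Rep1, those of Urb1 and Pigp were 0.12 and 0.30 without the 24 hr sample, and that of Il10rb was 0.55 without the 0 hr sample.

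**Figure D4:**
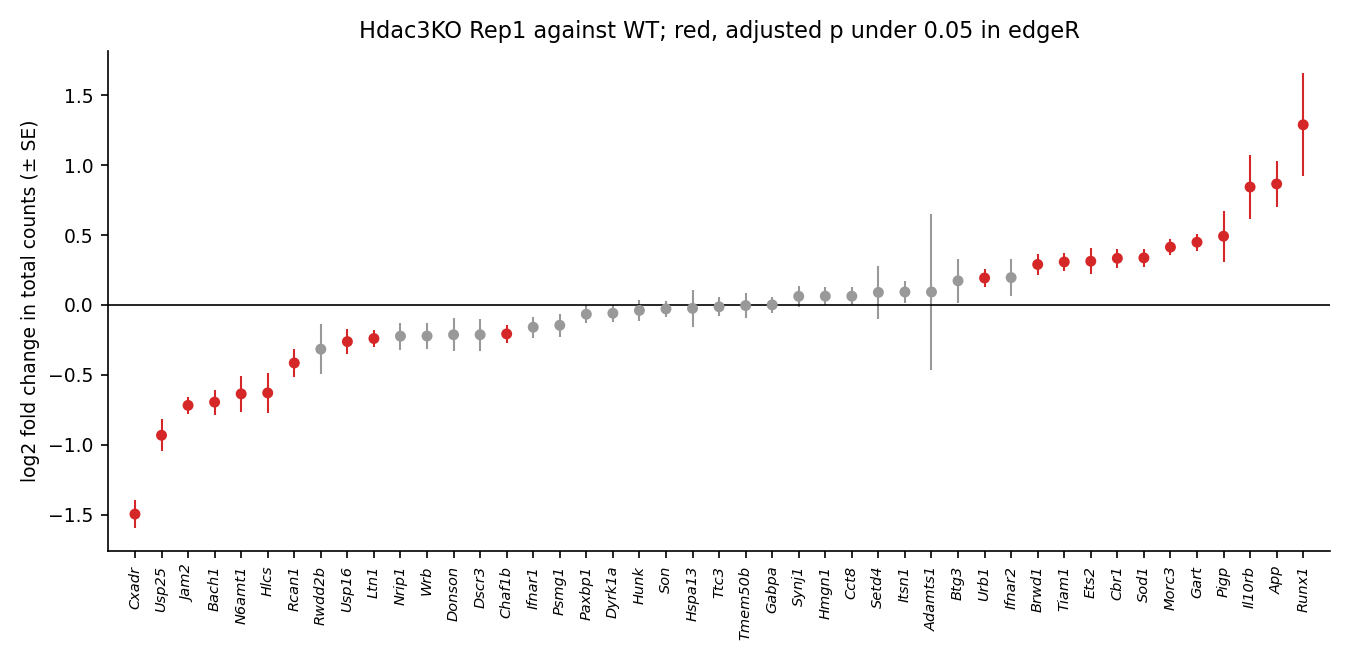
edgeR log2 fold change in total counts, Hdac3KO Rep1 against WT, for the 45 genes in order of size; bars are standard errors and red marks an adjusted p under 0.05. Cxadr is lowest at −1.50, and App (0.87) and Runx1 (1.29) are at the upper end.

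In allelic counts, the log2 B6:Cast ratio of Hdac3KO Rep1 differed from WT for 2 of 42 genes (3.42% of all 9595 genes tested). The ratios of both lines were used to group them as Cast-skewed, so the number of calls does not measure how alike they are. App moved further towards Cast by −1.65 ± 0.24 (adjusted p = 1.66e-06 in edgeR), with Cast reads of 14.2 and 19.5 CPM against 3.91 to 9.14 in WT and B6 reads were 2.87 and 3.08 against 2.16 to 5.22. Jam2 moved towards B6 by 0.50 ± 0.069 (adjusted p = 5.28e-07 in edgeR), with Cast reads of 83.8 and 87.0 CPM against 148 to 175 in WT and B6 reads of 48.9 and 56.3 against 65.7 to 70.6. The direction was the same in both samples of the clone for both genes. With limma on the d-score itself neither passed, at adjusted p of 0.0934 for App and 0.295 for Jam2; over the alternatives the adjusted p ranged from 9.38e-08 to 0.0934 for App and from 1.64e-08 to 0.295 for Jam2. With a minimum of 50 allelic reads Ifnar1 also passed, at 0.45 (adjusted p = 0.048 in edgeR).

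DOX, which induces Xist, was tested as 24 hr against 0 hr in each genotype, with edgeR on the 4 groups. In total counts 0 of 45 genes passed in WT (0.182% of all genes) and 0 of 45 in Hdac3KO (0.0218%), and the interaction of DOX and genotype was called for 0 of 45 (0.0% of all genes). In allelic counts 0 of 42 passed in WT (1.61% of all genes) and 0 of 42 in Hdac3KO (0.406%). In each of these comparisons 0 of the genes had an unadjusted p under 0.05, and DESeq2 and limma voom on total counts called 0 of them. The median log2 change in total counts was 0.052 in WT and 0.014 in Hdac3KO.

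These counts depend on whether replicates are taken as pairs. Same-numbered WT samples deviated together from their group means (r = 0.275 across genes), although the labels give them no shared origin. With the replicate number as a block within each genotype, 6 of 45 genes passed for DOX in WT (11% of all genes). Jam2 (0.17 ± 0.048, log2 estimate ± SE), Cct8 (0.14 ± 0.046), Tiam1 (0.21 ± 0.063) and Cbr1 (0.24 ± 0.075) were higher at 24 hr, and Cxadr (−0.26 ± 0.081) and Brwd1 (−0.30 ± 0.056, adjusted p = 8.81e-05 in edgeR) were lower, in both WT pairs. For Brwd1 the pairs went from 306 to 234 and from 271 to 236 CPM. With 1 block per number shared by both genotypes, 0 of the 45 passed.

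The Hdac3KO replicates are different clones, so each clone's 0 and 24 hr samples form a pair, and the spread between clones enters the unpaired test. With the clone as a block, Tiam1 rose by 0.25 ± 0.062 (log2, SE) in Hdac3KO (adjusted p = 0.0113 in edgeR), from 108 to 131 CPM in Rep1 and from 61.4 to 70.7 in Rep2. It was the only gene of the 45 called there (1.79% of all genes), and the block gave 0 interaction and 0 allelic calls among these genes.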

How the data were processed

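RNA-seq libraries were rRNA-depleted and sequenced in pairs, aligned with TopHat2 2.1.0 to mm10 and counted by strand over exons with featureCounts 1.5.1, per the submitters' processing notes and the study's methods. The authors deposited, for each sample, total read counts per gene, B6 and Cast read counts, and the d-score as a fraction, which the study's methods calculate from 10 allelic reads upwards. How RNA reads were assigned to alleles is not given in the sources used here. Genes were placed with GENCODE M21 (24163 of 24542 symbols, 281 through a RefSeq synonym).

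Counts were tested as deposited with edgeR 4.0.16 (R 4.3.3) quasi-likelihood tests and Benjamini-Hochberg adjustment over all genes, after TMM scaling and a minimum of 10 reads in 2 samples. B6 and Cast counts entered a fit with an effect for each sample, for genes with at least 10 allelic reads in every sample. CPM, B6 and Cast alike, were divided by effective total library sizes. Tests were checked on simulated counts of independent samples, a setting that does not cover the 2 samples that share a clone. Alternatives were DESeq2 1.42.0, limma 3.58.1 voom, other scalings, filters and pseudocounts, replicate blocks and leaving out each sample. For the description of Hdac3KO Rep2, leaving out samples was added after seeing the data.

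The 47 genes, their roles and the marker lists were chosen with earlier results of these data known. Genes described one by one are 16 chosen by name, those past an adjusted p of 0.05, and, at 50 allelic reads or more, the 3 highest and 3 lowest differences between clones. Same-numbered Hdac3KO samples deviated together from their group means (r = 0.636 across genes), and are taken as the same clone. For WT r was 0.275, and between same-numbered samples of WT and Hdac3KO 0.174 to 0.211, with no shared origin in the labels. Intervals are exact binomial.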

Additional observations from a re-analysis of the deposited data

How the results depend on the processing

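Groups hold 2 samples of 1 line or 2 clones, so genes with few reads could change without being called. Of 327 values of single genes called for Hdac3KO Rep1 against WT under alternatives, 301 kept direction and call, 26 kept the direction only and 0 reversed. In counts of calls, a replicate block within genotype gave 6 genes for DOX in WT (1513 of all genes) and 1 in Hdac3KO (247 of all genes); a block shared by both genotypes gave 0, and blocks changed no other call. For Hdac3KO Rep1 against WT, leaving out each sample gave 13 to 23 total calls and 2 to 3 allelic calls, and limma on the d-score 0; DESeq2 gave 18 and voom 23. For all DOX results leaving out a sample gave 0.

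The median differences of Hdac3KO Rep2 kept their sign in every setting. Total CPM against Hdac3KO Rep1 became −0.354 with reads pooled over genes and −0.382 at 0 hr only; leaving out each sample gave −0.527 to −0.382. Against WT it was −0.525 as a mean, −0.346 pooled, and −0.459 to −0.378 without each sample. Cast CPM with a prior of 2 CPM was −0.698 against Hdac3KO Rep1 and −0.637 against WT, where the mean was −0.892; without each sample it was −0.861 to −0.764 and −0.826 to −0.734. B6 CPM against WT was 0.008 as a mean, 0.219 pooled, 0.133 with at least 50 allelic reads and 0.045 to 0.112 without each sample; against Hdac3KO Rep1 the range was 0.003 to 0.174. The cause of these shifts was not tested. Leaving out a sample also drops the matched time where no other sample of the line covers it.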
